A study of Homo sapiens with 6 samples.

Results

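The EGFR family genes described here are 10 genes: the receptors EGFR, ERBB2 and ERBB3, the ligands AREG, EREG, HBEGF, TGFA, BTC and EPGN, and the receptor inhibitor ERRFI1. They were chosen by name from a table of 31368 genes, and all 10 were found, each in 1 row. The libraries are poly-A-selected RNA from CAL27, an established human line of tongue squamous cell carcinoma. In 3 libraries the cells were untreated, and in the other 3 they had been exposed to 10 mM lactate for 24 h. The study asks how lactate, which can be attached to lysines as lactylation, bears on gene regulation in oral squamous cell carcinoma. All libraries are of 1 cell line, nothing in the labels says whether replicates were separate cultures, and neither the form of the lactate nor the pH is given, so p-values cover no more than the spread among these libraries, part or all of which may be technical.

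EGFR and its relatives are receptor tyrosine kinases that pair at the cell surface when a ligand binds. ERBB2 binds no known ligand and serves as a partner, and ERBB3 has a weak kinase and signals through its partners. The ligands are made as membrane-anchored precursors and are cut free by ADAM proteases. AREG, TGFA and EPGN bind EGFR, whereas HBEGF, EREG and BTC bind EGFR and ERBB4. ERRFI1, also called MIG6, is induced by the pathway and blocks the EGFR kinase domain. EGFR is often abundant in squamous carcinomas of the head and neck, where it is a drug target.

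Whole reads behind the FPKM values summed to 25894633 to 34316308 per untreated library and 30677153 to 39509196 per lactate library. Markers of squamous epithelium were present at 1 FPKM or more in every library for 8 of 8 genes, and their sum stood at 439.5 to 443.0 FPKM in untreated and 444.7 to 452.0 FPKM in lactate libraries. Of these 8, 5 were higher in all lactate libraries (KRT14, KRT17, TP63, CDH1 and DSG3), 2 were lower in all (KRT5 and KRT6A) and PERP overlapped. KRT14 was the lowest, at 1.89 to 2.23 FPKM in untreated and 2.74 to 2.89 FPKM in lactate libraries. The part of these marker differences in the results below was not tested. Of the fibroblast, leukocyte and endothelial markers, 3 of 4 were in the table in each list and none reached 1 FPKM in all libraries. The highest was the endothelial gene CDH5 (0.962 to 1.34 FPKM). Summed fibroblast markers stood at 0.570 to 0.665 FPKM in untreated and 0.750 to 0.802 FPKM in lactate libraries, leukocyte markers at 0.0348 to 0.105 and 0.0598 to 0.0892, and endothelial markers at 1.13 to 1.41 and 1.03 to 1.13. Across 9881 protein-coding genes the fold change followed GC content (Spearman rho -0.48) and gene length (rho 0.32). Where removal of that trend changed the call of a family or pathway gene named below, this is stated. Sizes of change with the trend removed are given for some genes only. In bulk RNA, fewer cells making a transcript and less of it per cell cannot be told apart.

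Of the 10 genes, 8 reached 1 FPKM in at least 3 libraries and were tested with limma on log2(FPKM + 1). Of these, 4 rose in lactate (EGFR, TGFA, ERRFI1 and EREG), 1 fell (HBEGF) and 3 did not pass (AREG, ERBB2 and ERBB3) at a Benjamini-Hochberg adjusted p under 0.05 over all 11792 genes tested. Calls were common in this comparison: 58.6% of all genes tested passed, 27.7% as higher and 30.9% as lower, and the total of 5 in 8 among the family genes was close to the first of these. With libraries scaled to their read totals the split over all genes moved from 3265 higher and 3649 lower to 4162 and 2579, while the family kept 4 higher and 1 lower, the same 5 genes. The median log2 fold change of the 8 was 0.056, against -0.016 for all genes tested. After the GC and length trend was removed, 48.8% of 11588 genes passed, and of the 5 family genes EREG was lost. In 6 of the 8 the values of the groups did not overlap, where 65.5% of all genes tested did not.

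**Figure D1:**
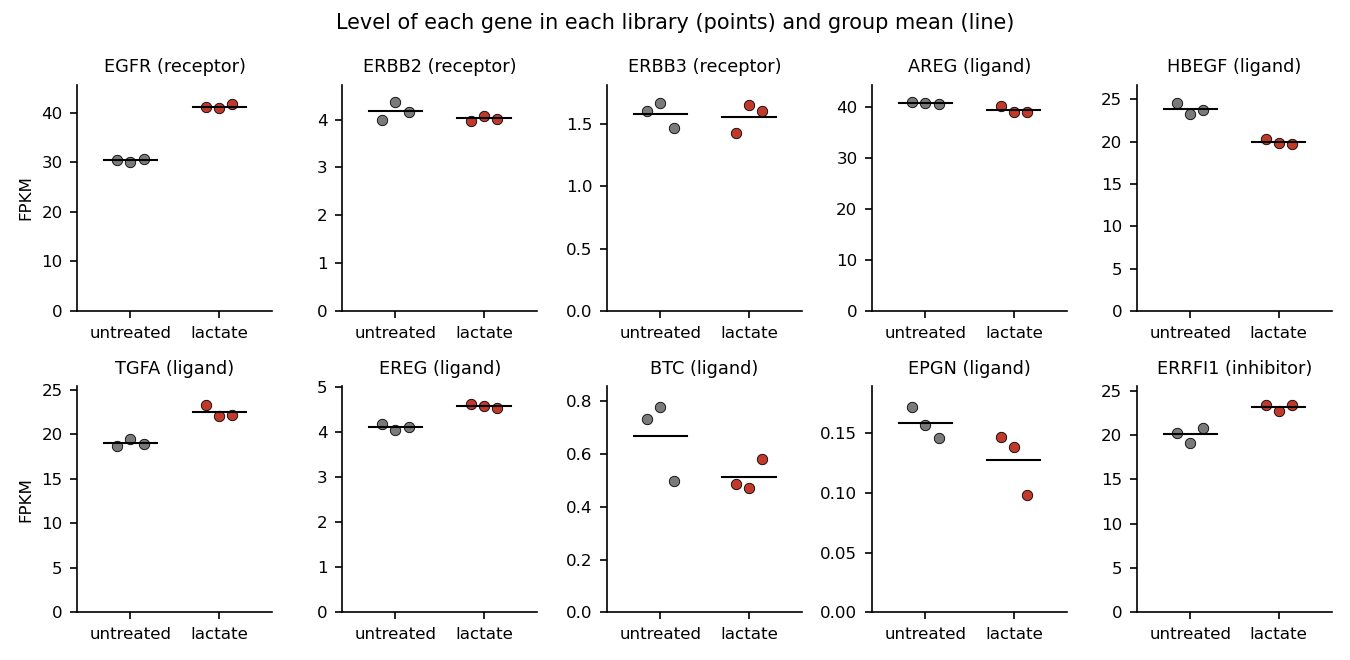
FPKM (y axis, from 0) of each of the 10 genes in the 3 untreated (grey) and 3 lactate (red) libraries, with lines at the group means. EGFR separates the groups most clearly, HBEGF is lower in all lactate libraries, and the values of ERBB2, ERBB3, BTC and EPGN overlap.

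Among the receptors, EGFR rose and the others did not pass. EGFR (ENSG00000146648, chromosome 7, 55019021 to 55211628 in GRCh38, plus strand) stood at 30.5, 29.96 and 30.6 FPKM in untreated replicates 1 to 3. It stood at 41.1, 40.8 and 41.7 FPKM in lactate replicates 1 to 3. All lactate libraries were above all untreated ones, and the distance between the groups was far larger than the spread within either. The means were 30.4 ± 0.344 and 41.2 ± 0.449 FPKM (SD, n = 3 each), a ratio of 1.36, with a log2 fold change of 0.43 (SE 0.021, limma adjusted p = 1.26e-05). These levels rest on 9430 to 20971 reads per library. Among all genes tested, 219 (1.86%) had a larger rise. The rise was 0.39 with the GC and length trend removed and 0.50 with read totals. EGFR shares 186 nt of exon with the antisense gene EGFR-AS1, which stood at 0.322 to 0.487 FPKM, and strandedness of the counting is not given in the sources used here.

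ERBB2 (ENSG00000141736, chromosome 17, 39687914 to 39730426, plus strand) stood at 4.001, 4.36 and 4.16 FPKM in untreated and 3.98, 4.08 and 4.01 FPKM in lactate libraries. The groups overlapped, since untreated replicate 1 lay within the lactate range. The log2 fold change was -0.043 (95% interval -0.13 to 0.043, limma adjusted p = 0.348). Its exons overlap those of MIEN1 by 571 nt and of PGAP3 by 194 nt on the opposite strand, and MIEN1 was the more abundant at 16.5 to 19.4 FPKM, and if strand was not used in counting, reads from the shared stretches could not be told apart. ERBB3 (ENSG00000065361, chromosome 12, 56076799 to 56103505, plus strand) was the lowest of the receptors in every library. Its values were 1.61, 1.67 and 1.47 FPKM in untreated and 1.43, 1.65 and 1.601 FPKM in lactate libraries, again overlapping. The log2 fold change was -0.013 (95% interval -0.14 to 0.11, adjusted p = 0.850 by limma). The signs of these changes were not stable: with read totals ERBB2 stood at 0.014 and ERBB3 at 0.030, neither past the threshold. With the GC and length trend removed ERBB2 stood at -0.0013 and ERBB3 at 0.016, again neither past it.

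The 4 ligand genes EPGN, EREG, AREG and BTC lie side by side on chromosome 4, within 486.2 kb (74308473 to 74794686 in GRCh38), with no other gene of the table between them. Although neighbours, they differed widely in level, from 0.0980 FPKM for EPGN to 41.0 FPKM for AREG. Promoter sequences from RefSeq (GRCh38.p14) were matched by symbol for 9 of the 10 genes, all but ERBB3. Where a gene had several, the entry nearest to its GENCODE 29 start was taken. The 250 bases before the start were searched on both strands for 6 motifs. Some of these windows lie partly or wholly within the gene as GENCODE 29 places it. This holds for 250 bases of the TGFA window, 180 of ERBB2 and 163 of BTC, and for at most 28 in the others. The AP-1 motif was read as TGANTCA and the cyclic AMP response element, or CRE, as TGACGTCA. The GC box was searched as GGGCGG and the TATA box as TATAAA. The E-box was searched as CACGTG, and the last motif as the pentamer CCAAT. The windows of 4 genes are shown because they carry the contrasts of this report: EGFR rose most, HBEGF fell, and AREG and EREG are neighbours that differed in level. Each is written 5′ to 3′ on the strand of its gene, with matches in capitals, and ends before the first base that GENCODE 29 places in the gene. EGFR spans chr7:55018767-55019016 (plus), HBEGF chr5:140346632-140346853 (minus), AREG chr4:74444886-74445133 (plus) and EREG chr4:74364895-74365142 (plus).
EGFR: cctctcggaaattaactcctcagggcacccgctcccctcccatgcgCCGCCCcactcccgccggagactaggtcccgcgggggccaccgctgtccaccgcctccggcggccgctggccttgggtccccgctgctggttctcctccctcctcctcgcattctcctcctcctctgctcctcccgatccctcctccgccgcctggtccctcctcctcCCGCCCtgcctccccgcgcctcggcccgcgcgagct
HBEGF: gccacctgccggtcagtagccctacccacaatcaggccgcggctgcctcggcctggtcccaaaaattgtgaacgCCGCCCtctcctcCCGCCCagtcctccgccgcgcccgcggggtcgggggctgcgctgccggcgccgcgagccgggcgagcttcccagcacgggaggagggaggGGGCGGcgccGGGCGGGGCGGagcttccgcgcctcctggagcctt
AREG: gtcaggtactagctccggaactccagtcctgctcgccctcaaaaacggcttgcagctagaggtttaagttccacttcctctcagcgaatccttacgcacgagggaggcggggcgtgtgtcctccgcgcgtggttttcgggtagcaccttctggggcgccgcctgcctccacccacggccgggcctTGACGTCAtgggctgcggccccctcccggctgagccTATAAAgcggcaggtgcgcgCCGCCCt
EREG: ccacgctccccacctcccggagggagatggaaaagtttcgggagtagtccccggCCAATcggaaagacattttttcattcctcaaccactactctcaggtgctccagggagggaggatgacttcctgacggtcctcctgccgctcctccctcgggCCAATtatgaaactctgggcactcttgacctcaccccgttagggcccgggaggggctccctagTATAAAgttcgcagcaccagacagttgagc

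The EGFR window holds GC boxes starting 204 and 36 bases before the start and no TATAAA. HBEGF holds 5 GC boxes, the last of them overlapping by a base with the one before it. AREG has a TATA box 29 bases before the start, a CRE at 65 and a GC box at 9, and EREG has a TATA box at 32 and CCAAT matches at 196 and 95. Of the 9 windows, 3 hold TATAAA, and these are AREG, EREG and EPGN, all of the chromosome 4 group. That motif occurs in 10.7% of 35116 promoters searched the same way. GC boxes occur in 5 of the 9 (EGFR, AREG, HBEGF, TGFA and ERRFI1) and in 42.6% of all. The CRE is in the AREG window only and in 1.65% of all, AP-1 in that of ERBB2 only and in 6.57% of all, and no window holds the E-box, which is in 6.34% of all. CCAAT is in 4 of the 9 (ERBB2, EREG, EPGN and ERRFI1) and in 32.0% of all. A match is a string of letters, and nothing about factor binding was measured in these libraries.

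AREG, which encodes amphiregulin, was the most abundant ligand mRNA by FPKM in every library. AREG (ENSG00000109321, chromosome 4, 74445134 to 74455009, plus strand) stood at 41.0, 40.7 and 40.6 FPKM in untreated and 40.1, 39.1 and 39.0 FPKM in lactate libraries. Lactate libraries were all lower, and on the log2 scale the difference was smaller than for EREG, HBEGF or TGFA. The log2 fold change was -0.049 (95% interval -0.097 to -0.00096, unadjusted p = 0.0466, limma adjusted p = 0.0745). It passed after median centring (-0.071, adjusted p = 0.0228 by limma), stood at 0.019 with read totals and 0.033 after quantile normalization, and at 0.000071 with the trend removed, so no direction is given for it.

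TGFA, the gene of transforming growth factor alpha, rose. TGFA (ENSG00000163235, chromosome 2, 70447280 to 70554193, minus strand) stood at 18.7, 19.4 and 18.9 FPKM in untreated and 23.3, 22.05 and 22.2 FPKM in lactate libraries. The groups did not overlap, and lactate replicate 1 was the highest. Means were 19.0 ± 0.385 and 22.5 ± 0.697 FPKM (SD, n = 3 each), a ratio of 1.18 (log2 fold change 0.23, SE 0.030, limma adjusted p = 0.000483), from 2403 to 4381 reads per library. With the trend removed the change was 0.22.

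HBEGF, the gene of heparin-binding EGF-like growth factor, was the family gene that fell. HBEGF (ENSG00000113070, chromosome 5, 140332843 to 140346631, minus strand) stood at 24.5, 23.3 and 23.7 FPKM in untreated libraries and at 20.4, 19.9 and 19.7 FPKM in lactate. Every lactate library was below every untreated one. Means were 23.9 ± 0.631 and 19.98 ± 0.341 FPKM (SD, n = 3 each), a ratio of 0.837 (log2 fold change -0.24, SE 0.027, limma adjusted p = 0.000263). The fall became -0.13 with the trend removed (limma adjusted p = 0.00474) and -0.18 with read totals, past the threshold in both.

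EREG, the epiregulin gene, stood about as high as ERBB2. EREG (ENSG00000124882, chromosome 4, 74365143 to 74388751, plus strand) had 4.19, 4.04 and 4.13 FPKM in untreated and 4.63, 4.58 and 4.53 FPKM in lactate libraries, and the groups did not overlap. The log2 fold change was 0.12 (SE 0.031, limma adjusted p = 0.00984). EREG has the lowest GC content of the 10 genes (36.1%, against a median of 48.2% for protein-coding genes tested), and with the GC and length trend removed its change was -0.031 (limma adjusted p = 0.415). The rise of EREG was thus called with that trend left in and not with it removed.

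BTC, the betacellulin gene, and EPGN, the epigen gene, were under the filter. BTC (ENSG00000174808, chromosome 4, 74744759 to 74794686, minus strand) stood at 0.733, 0.779 and 0.498 FPKM in untreated and 0.487, 0.470 and 0.581 FPKM in lactate libraries, on 40 to 62 reads. EPGN (ENSG00000182585, chromosome 4, 74308473 to 74315307, plus strand) stood at 0.171, 0.157 and 0.146 FPKM in untreated and 0.147, 0.138 and 0.0980 FPKM in lactate, on 13 to 16 reads. The groups overlapped for both, and on these few reads no difference was detected. Fitted without the filter, BTC had a log2 fold change of -0.14 (limma adjusted p = 0.327) and EPGN of -0.038 (limma adjusted p = 0.585). The log2(FPKM + 1) scale of the fit understates changes at such levels. As ratios of mean FPKM, lactate over untreated, BTC stood at 0.765 and EPGN at 0.809.

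ERRFI1, the feedback inhibitor of EGFR, rose. ERRFI1 (ENSG00000116285, chromosome 1, 8004404 to 8026308, minus strand) stood at 20.3, 19.1 and 20.8 FPKM in untreated and 23.4, 22.7 and 23.4 FPKM in lactate libraries, without overlap. Means were 20.1 ± 0.853 and 23.2 ± 0.409 FPKM (SD, n = 3 each), a ratio of 1.15 (log2 fold change 0.20, SE 0.034, limma adjusted p = 0.00186). With the trend removed the change was 0.13 (limma adjusted p = 0.00618).

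**Figure D2:**
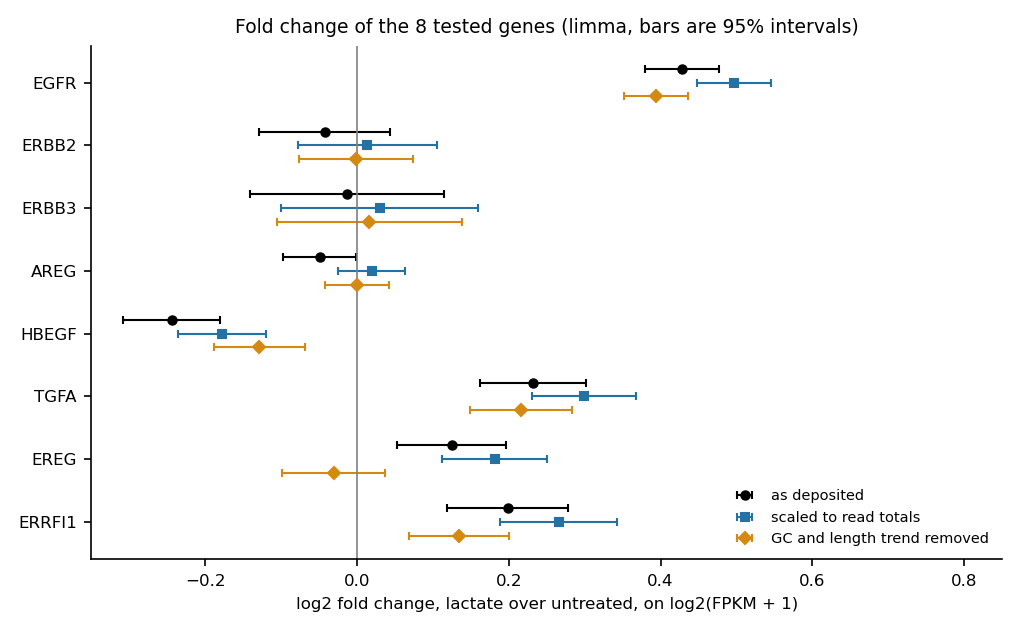
Log2 fold change of the 8 tested genes (x axis, lactate over untreated on log2(FPKM + 1)) with 95% intervals from limma, as deposited (circles), scaled to read totals (squares) and with the GC and length trend removed (diamonds). EGFR, TGFA and ERRFI1 stay above 0 and HBEGF below 0 in all 3, whereas EREG moves from 0.12 to -0.031.

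FPKM is per length, so levels can be set side by side. In untreated cells the order of means was AREG, EGFR, HBEGF, ERRFI1, TGFA, ERBB2, EREG, ERBB3, BTC and EPGN. In lactate it was EGFR, AREG, ERRFI1, TGFA, HBEGF, EREG, ERBB2, ERBB3, BTC and EPGN. Neighbours whose library values overlapped were ERRFI1 with TGFA in both groups, and ERBB2 with EREG in untreated cells. Every other pair of neighbours stood apart in the libraries of its group.

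Changes of rank were followed as ratios within each library, which do not depend on how libraries are scaled. These ratios were chosen after the values were seen. EGFR was at 0.745 ± 0.00917 of the AREG level in untreated and 1.05 ± 0.0229 in lactate libraries (SD, n = 3 each). In FPKM, EGFR was thus below AREG in each untreated library and above it in each lactate library. Where a ratio lies around 1 depends on the gene lengths used, whereas its change between groups does not. TGFA over HBEGF went from 0.797 ± 0.0366 to 1.13 ± 0.0177, and again all 3 untreated libraries were under 1 and all 3 lactate libraries over it. EGFR over ERBB2 went from 7.28 ± 0.381 to 10.2 ± 0.206, with the lactate libraries all higher. The level of ERRFI1 relative to EGFR was 0.661 ± 0.0208 in untreated and 0.563 ± 0.00678 in lactate libraries. EREG over AREG was 0.101 ± 0.00156 and 0.116 ± 0.000932. The GC and length trend is not removed by such ratios. With it removed the log2 fold changes were -0.031 for EREG and 0.000071 for AREG (0.12 and -0.049 as deposited), so the higher EREG over AREG was not seen there. EGFR stood at 0.39 there (0.43 as deposited), ERRFI1 at 0.13 (0.20), TGFA at 0.22 (0.23) and HBEGF at -0.13 (-0.24). Ratios with the trend removed were not computed. Whether EGFR over AREG and TGFA over HBEGF would still go from under 1 to over 1 was not tested. None of the 5 ratios overlapped between groups. The exact two-sided permutation p was 0.1 for each (also 0.1 after Benjamini-Hochberg adjustment over the 5), which is the smallest that 3 against 3 libraries allow, so none could pass.

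**Figure D3:**
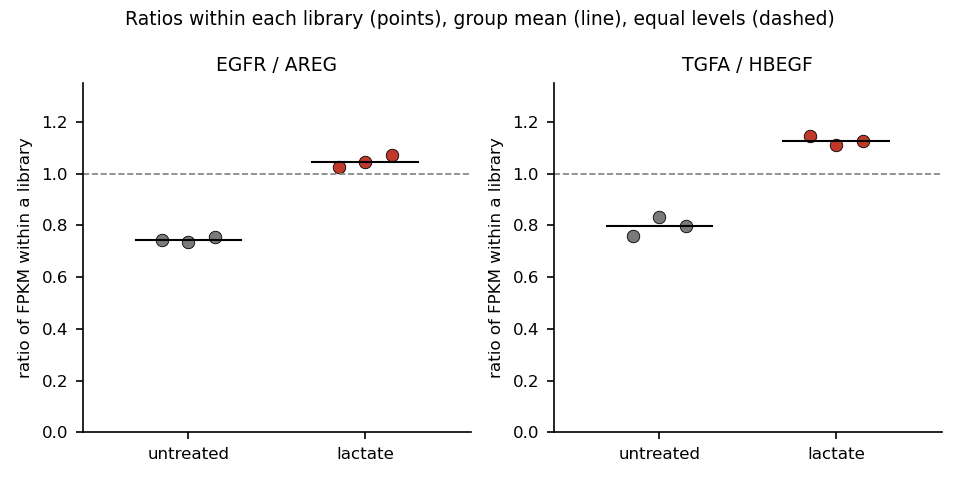
Ratio of FPKM within each library (y axis) for EGFR over AREG and TGFA over HBEGF, in untreated (grey) and lactate (red) libraries, with group means as lines. Both ratios are under 1 (dashed) in the 3 untreated libraries and over 1 in the 3 lactate libraries.

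The sum of the 6 ligand mRNAs was 88.6 ± 0.653 FPKM in untreated and 87.1 ± 1.67 FPKM in lactate libraries (SD, n = 3 each), with overlapping values, while its make-up differed. AREG made up 46.0% ± 0.103 of it in untreated and 45.2% ± 0.165 in lactate libraries. The share of HBEGF went from 26.9% ± 0.567 to 22.95% ± 0.1003, and that of TGFA from 21.5% ± 0.535 to 25.8% ± 0.312. With the values as deposited, TGFA thus took the place of HBEGF as the second ligand by FPKM. EREG accounted for 4.65% ± 0.0683 and 5.26% ± 0.0605, BTC for 0.756% ± 0.167 and 0.589% ± 0.0746, and EPGN for 0.178% ± 0.0133 and 0.146% ± 0.0283. Shares with the GC and length trend removed were not computed. With it removed the log2 fold change was -0.13 for HBEGF, 0.22 for TGFA and -0.031 for EREG.

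**Figure D4:**
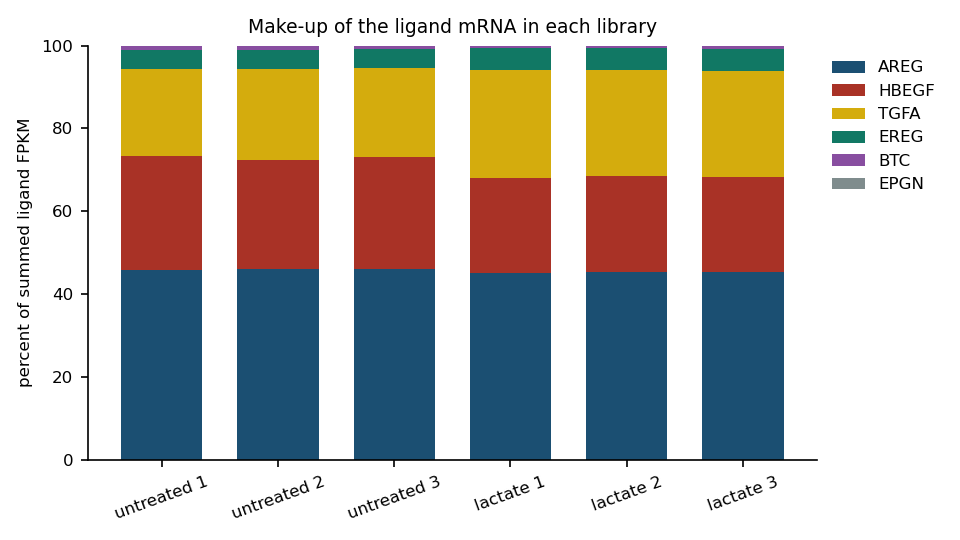
Share of each ligand in the summed FPKM of the 6 ligands (y axis, percent) in each of the 6 libraries. With the values as deposited, the AREG block is similar throughout, and the HBEGF block is smaller and the TGFA block larger in the lactate libraries.

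Among all genes tested, those most like EGFR over the 6 libraries were SEC23IP, IQGAP1 and MAP4K5 (Pearson r of log2(FPKM + 1) 0.9997 each), and 400 genes had an r of at least 0.99. SEC23IP went from 6.25 to 7.88 FPKM, IQGAP1 from 21.6 to 28.04 and MAP4K5 from 5.29 to 6.32. Genes close to HBEGF in pattern included RANBP1P1 (r 0.9984, a pseudogene whose reads could be shared with its parent gene) and UHRF1 (0.9981), with 141 genes at 0.99 or more. With 2 groups of 3 libraries such an r mostly reflects the difference between groups, and it is given as a description.

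The family outside these 10 genes was represented mainly by NRG1, a neuregulin that binds ERBB3 and ERBB4. NRG1 stood at 17.6, 18.1 and 17.8 FPKM in untreated and 14.0, 14.2 and 13.8 FPKM in lactate libraries, and it fell (log2 fold change -0.33, SE 0.024, limma adjusted p = 4.68e-05). Per length it was more abundant than ERBB2 and ERBB3 in every library, and the remaining family receptor, ERBB4, was at most 0.0350 FPKM. EGF, NRG2 and NRG4 were under the filter as well, and NRG3 was not found by name. EGF stood at 0.157 to 0.222 FPKM in untreated and 0.258 to 0.295 FPKM in lactate libraries, without overlap, and was not tested.

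Of the genes that release the ligands, 6 were tested of 7 listed, and 4 rose, 1 fell and 1 did not pass, beside 27.7% higher and 30.9% lower over all genes tested. Their median log2 fold change was 0.14, against -0.016 for all genes tested. ADAM10, a sheddase, went from 6.44 ± 0.111 to 8.60 ± 0.190 FPKM (SD, n = 3 each, log2 fold change 0.37). ADAM17, the main sheddase of AREG, TGFA and HBEGF precursors, went from 4.77 ± 0.239 to 5.72 ± 0.160 FPKM (0.22, limma adjusted p = 0.00258). FRMD8, whose product stabilises the iRhom-ADAM17 complex, fell from 25.9 ± 0.353 to 23.1 ± 0.682 FPKM. With the GC and length trend removed 3 rose and 0 fell, beside 2669 and 2988 over all 11588 genes tested. Neither ADAM17 (0.026, limma adjusted p = 0.550) nor FRMD8 (limma adjusted p = 0.0796) passed there, while ADAM10 did (0.16).

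Adaptor and kinase genes downstream of the receptors moved both ways. Of 22 tested of 26 listed, 9 rose and 6 fell, beside 27.7% higher and 30.9% lower over all genes tested (median 0.018, against -0.016). The number lower was 3 both with read totals, where 11 were higher, and with the trend removed, where 9 were. Over all genes tested, read totals gave 4162 higher and 2579 lower of 11792. Removal of the trend gave 2669 and 2988 of 11588. PTPN11, the gene of the phosphatase SHP2, went from 25.7 ± 0.494 to 33.4 ± 0.601 FPKM (SD, n = 3 each, log2 fold change 0.37). On the other side HRAS, the gene of a RAS GTPase, fell from 47.6 ± 0.486 to 35.8 ± 1.11 FPKM, a log2 fold change of -0.40. AKT2, the gene of a kinase downstream of PI3K, fell from 11.3 ± 0.378 to 9.58 ± 0.257 FPKM. PTPN11, HRAS and AKT2 kept their direction and call with the trend removed (0.23, -0.30 and -0.19).

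Among genes that restrain the receptor or sort it after uptake, 10 of 18 tested of 20 listed rose and 3 fell (median 0.17, against -0.016), beside 27.7% higher and 30.9% lower over all genes tested. PTPN12, a tyrosine phosphatase that acts on the family, went from 8.87 ± 0.274 to 13.3 ± 0.143 FPKM (log2 fold change 0.54). CBL, the ubiquitin ligase of activated EGFR, went from 1.47 ± 0.0274 to 1.99 ± 0.0258 FPKM. The endosomal sorting genes HGS (10.4 ± 0.246 to 8.30 ± 0.0576 FPKM) and TSG101 (26.9 ± 0.447 to 23.6 ± 0.386 FPKM) fell. With the trend removed the list had 5 higher and 4 lower, beside 2669 and 2988 over all 11588 genes tested. Its median was then 0.033, against -0.0048. PTPN12, CBL, HGS and TSG101 all still passed in the same direction.

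Of genes commonly read as output of ERK, the kinase at the end of the pathway, 13 were tested of 14 listed. Of these 5 rose, 1 fell and 7 did not pass, beside 27.7% higher and 30.9% lower over all genes tested (median 0.063, against -0.016). IER3 went from 321 ± 3.51 to 365 ± 11.1 FPKM (log2 fold change 0.19), CCND1 from 52.5 ± 0.292 to 56.2 ± 0.478 FPKM (0.094), and EPHA2 from 72.6 ± 1.32 to 67.2 ± 2.22 FPKM (-0.11). The feedback genes DUSP6 (0.063, limma adjusted p = 0.0826), SPRY2 (0.031, adjusted p = 0.550) and SPRY4 (0.11, adjusted p = 0.0695) did not pass. With the trend removed DUSP6 (0.088, limma adjusted p = 0.0322) and SPRY4 (0.16, limma adjusted p = 0.0197) passed as higher, and SPRY2 did not (0.11, limma adjusted p = 0.0591). The count depended on scaling. It was 9 higher and 0 lower with read totals, 8 and 0 after quantile normalization, and 8 and 1 with the trend removed. Over all genes tested these settings gave 4162 higher and 2579 lower, 3319 and 3224 (both of 11792), and 2669 and 2988 (of 11588). With the trend removed the median was 0.16 and EPHA2 did not pass (limma adjusted p = 0.643). The gene that fell there was PHLDA1 (-0.066, limma adjusted p = 0.0423), which did not pass with the values as deposited.

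**Figure D5:**
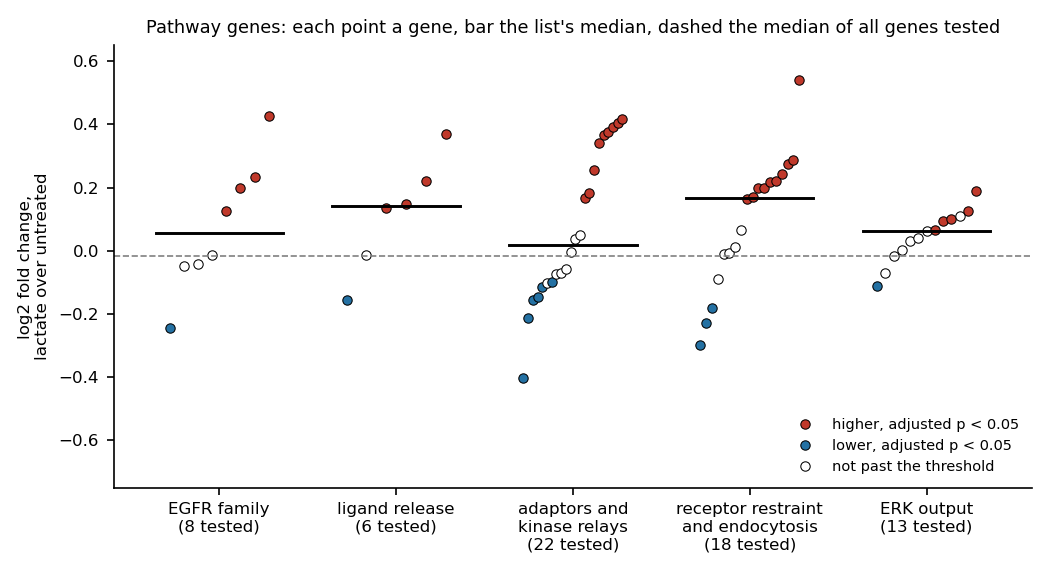
Log2 fold change (y axis, lactate over untreated) of each tested gene of the EGFR family and of 4 lists around it, coloured by call, with the list medians as bars and the median of all genes tested dashed. With the values as deposited, EGFR is the highest of the family and the ERK output genes lie between -0.11 and 0.19. The restraint and endocytosis list has the highest median of the 4 lists as deposited (0.17) and the lowest with the trend removed (0.033). The others then stand at 0.0385 (adaptors and kinase relays), 0.11 (ligand release) and 0.16 (ERK output).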

How the data were processed

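Poly-A RNA of 3 untreated and 3 lactate-treated CAL27 libraries was measured. The authors deposited FPKM per gene (fragments per kilobase of gene, scaled by library size), 1 column per library. The submitters' processing notes list hg38, featureCounts 1.5.0-p3, StringTie 1.3.3b, HISAT2 2.0.5 and fastp; the annotation release and the strand setting were not given in the sources used here.

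Whole reads were recovered from the FPKM steps with a shared gene length, within 0.003 reads in all libraries for 31363 of 31368 genes (99.98%). The denominators behind FPKM differed from the sums of reads, so the values appear to be scaled between libraries already. This difference separated the groups: the sum of reads was above the denominator in every untreated library and below it in every lactate library. Summed FPKM was 432328 to 442352 in untreated and 398439 to 409127 in lactate libraries.

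The 11792 genes that reached 1 FPKM in 3 or more libraries were tested with limma 3.58.1 (R 4.3.3; trended, robust) on log2(FPKM + 1), group as the only term, Benjamini-Hochberg over all genes, threshold 0.05. Fold changes are lactate over untreated on that scale, which understates changes of low genes. Positions, exon overlaps and GC content are from GENCODE 29 (GRCh38), which held 30228 of the identifiers. Permutation tests used scipy 1.17.1. The fit was also run on simulated libraries, which had no GC and length trend between the groups, and no result given here rests on that run.

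The 10 genes and the lists were chosen with earlier results of these data known. From each pathway list, up to 2 genes each way, those of lowest p past the threshold, were named, except that some genes the naming rules pick are not reported here; DUSP6, SPRY2, SPRY4 and the untested ERBB4 were added after their values were seen. Alternatives were no filter or a filter at 5 FPKM, a pseudocount of 0.1, quantile normalization, median centring, read totals, voom on recovered reads, removal of the GC and length trend (natural splines, 4 degrees of freedom), no variance trend, the replicate block, and each library left out.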

Additional observations from a re-analysis of the deposited data

How the results depend on the processing

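Over the 16 alternatives, EGFR, TGFA and ERRFI1 rose and HBEGF fell in each. With 1 library left out the log2 fold change of EGFR was 0.42 to 0.43, of TGFA 0.21 to 0.25, of ERRFI1 0.17 to 0.22 and of HBEGF -0.26 to -0.22, and the family counts stayed at 4 higher and 1 lower. EREG was tested in 15 alternatives and passed in 14; it reversed to -0.031 with the GC and length trend removed, and it was not tested with the filter at 5 FPKM, nor were ERBB2 and ERBB3. Median centring brought the count of lower family genes from 1 to 2 by adding AREG. In the pathway lists, counts that moved by over 1.5 times came with the trend removed (ligand release 1 to 0 lower, adaptors 6 to 3 lower, restraint 10 to 5 higher, ERK output 5 to 8 higher), with read totals (adaptors 6 to 3 lower, ERK output 5 to 9 higher and 1 to 0 lower), after quantile normalization (ERK output 5 to 8 higher and 1 to 0 lower) and with the filter at 5 FPKM (restraint 10 to 6 higher, with fewer genes tested). The causes of the other moves were not tested. Over all genes tested, 3265 were higher and 3649 lower in the main fit. These counts were 2669 and 2988 with the trend removed and 4162 and 2579 with read totals. They were 3319 and 3224 after quantile normalization and 1786 and 2955 with the filter at 5 FPKM. Whether replicate numbers pair the samples is not given in the labels. Deviations of same-numbered libraries correlated at 0.0526, 0.0668 and -0.00377, and those of other pairs at -0.0706 to 0.0224. Not every library correlated best with its own number, but values this small cannot decide whether the numbers pair. With the replicate block the family had 4 higher and 1 lower, and all genes 3257 and 3782. Depth limits BTC and EPGN, with 13 to 62 reads per library.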
